A study of Mus musculus with 2 samples.

Results

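P2ry12, Gpr34, Cx3cr1, Csf1r, Tmem119, Mertk and Siglech are 7 genes that mark microglia, the resident immune cells of the brain, in their homeostatic state. The 7 are members of 32285 gene rows in each of 2 single-nucleus RNA-seq (snRNA-seq) count tables of mouse thalamus, and all 7 had a row in both. They were chosen by measured values, since earlier results of these data were known when the list was drawn up, so every level below is a description and no test was made on it. The list was named for receptors and enzymes. By their known functions 6 of the 7 encode cell-surface receptors or lectins, 2 of these (Csf1r and Mertk) are receptor tyrosine kinases and so are also enzymes, and Tmem119 encodes a membrane protein whose role is unsettled.

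The groups were sham operation and cortical ablation injury (CAI), in which surgery takes away sensory and motor cortex and so the cortical partners of thalamic neurons. Each group was 1 library, made by pooling nuclei of 4 female C57BL/6J mice, operated at 3 months of age, from the thalamus of the operated side on day 21, and sorting them after propidium iodide staining. Neither group carried a transgene or a drug treatment in the labels. The mice of a pool cannot be told apart, so each group had 1 replicate and no difference below has a replicate check.

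Microglia survey the brain with motile processes and are kept in their resting state by signals from neurons and other glia. Csf1r binds the growth factors Csf1 and Il34, on which microglial survival depends. Cx3cr1 is the receptor for Cx3cl1 (fractalkine), which neurons make. P2ry12 senses ADP and steers processes to sites of damage, and Gpr34, a relative of it, responds to lysophosphatidylserine. Mertk is a receptor of the TAM family (Tyro3, Axl and Mertk) that binds phosphatidylserine on dying cells through the bridging proteins Gas6 and Pros1. Siglech is a sialic acid-binding lectin that signals through the adaptor Tyrobp. Several of these genes are known to be expressed at lower levels when microglia turn reactive.

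To keep the members from choosing the nuclei they are measured in, microglia were gated on 4 other genes: nuclei with at least 2 UMIs (unique molecular identifiers, each 1 counted RNA molecule) over C1qa, C1qb, Inpp5d and Ly86 that met the gate of no other class. Of 16373 sham nuclei with a median of 7190 UMIs, 20 were gated as microglia (0.122%, 95% interval 0.0746 to 0.189), with a median of 1216 UMIs and 24978 UMIs in all. Of 21777 injury nuclei with a median of 6810 UMIs, 126 were (0.579%, 0.482 to 0.689), with a median of 1111 UMIs and 165838 in all. Another 17 sham and 77 injury nuclei met the microglia gate together with that of another class, neurons in 16 and 66 of them, and were left out as mixed; 1 nucleus in each library met the macrophage gate. The libraries shared 101 barcodes. All intervals are at 95% and, like the limits set by a count of 0, cover counting error only: they say how firmly a value of these 2 libraries is known, not how mice differ.

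The label of the gated nuclei was checked against genes outside the microglia gate and the member list. Markers of macrophages, neurons, oligodendrocytes and astrocytes had already served to leave nuclei out. Their low counts below were thus partly set by that selection, unlike those of the reference genes. All 18 reference genes of microglia outside the gate and the member list, such as Ptprc, Dock2 and Runx1, had UMIs in both libraries, and their summed level was 15374 UMIs per 1000000 UMIs of the gated nuclei (CPM) in sham and 14858 CPM in injury. Of 11 markers of border and infiltrating macrophages, 10 were at 0 in sham and 9 in injury. Mrc1, Cd163, Lyve1, Pf4, F13a1, Ms4a7 and Ccr2 had no UMI in sham, and of these only Mrc1 had 1 in injury. Stab1, which made up the rest, had 5 and 34 UMIs (200.2 and 205.02 CPM). Markers of neurons were present at 961 and 1001 CPM, with 5 of 6 and 6 of 6 detected, and markers of oligodendrocytes at 280.2 and 392 CPM, with 2 of 8 and 8 of 8 detected. Markers of astrocytes stood at 440.4 CPM in sham and 313.6 CPM in injury, with 2 of 8 and 6 of 8 detected. Subtracting each member's level in neurons from its level in microglia gave log2 ratios of injury over sham of -1.02 for P2ry12 and -1.85 for Gpr34, against -0.92 and -1.83 without it. The part of RNA from oligodendrocytes and from astrocytes was not tested. The gate genes themselves were not level between the groups: Ly86 was at 761 CPM in sham and 2129 CPM in injury, and Inpp5d at 3003 and 2141 CPM. C1qa (4 and 34 UMIs) and C1qb (2 and 31 UMIs) were sparse. The edge of the gate mattered for how many nuclei entered. Of nuclei that met no other gate, 8 in sham and 20 in injury had 1 gate UMI, and their summed members were at 5799 and 1809 CPM. The 3 and 28 nuclei with 2 gate UMIs stood at 6454 and 6401 CPM.

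The start of transcription is where these genes are turned on by factors such as Spi1 (PU.1), the ETS-family factor of the myeloid lineage, so promoter windows of 3 members are shown. The windows run from 250 bases before to 50 bases after the annotated start in RefSeq (GRCm38.p6). An entry for 4 of the 7 members was used. Capitals mark the letters GAGGAA or AGGAAG, ETS-type cores as read on either strand, so that TTCCTC is GAGGAA on the other strand. P2ry12 and Siglech are shown because each holds 1 match, and Cx3cr1 because it holds none.
P2ry12 (chr3:59262936-59263235, minus strand): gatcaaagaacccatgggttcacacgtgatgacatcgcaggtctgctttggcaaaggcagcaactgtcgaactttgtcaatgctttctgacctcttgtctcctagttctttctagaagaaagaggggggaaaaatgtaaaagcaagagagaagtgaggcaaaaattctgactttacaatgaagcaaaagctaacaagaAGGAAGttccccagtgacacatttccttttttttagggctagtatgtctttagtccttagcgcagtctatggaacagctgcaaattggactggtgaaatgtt
Siglech (chr7:55767934-55768233, plus strand): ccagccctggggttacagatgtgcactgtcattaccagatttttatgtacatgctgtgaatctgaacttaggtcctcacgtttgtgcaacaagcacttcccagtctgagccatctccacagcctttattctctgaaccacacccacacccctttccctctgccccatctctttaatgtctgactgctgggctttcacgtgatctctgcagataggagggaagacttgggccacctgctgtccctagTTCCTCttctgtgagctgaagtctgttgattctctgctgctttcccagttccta
Cx3cr1 (chr9:120068247-120068546, minus strand): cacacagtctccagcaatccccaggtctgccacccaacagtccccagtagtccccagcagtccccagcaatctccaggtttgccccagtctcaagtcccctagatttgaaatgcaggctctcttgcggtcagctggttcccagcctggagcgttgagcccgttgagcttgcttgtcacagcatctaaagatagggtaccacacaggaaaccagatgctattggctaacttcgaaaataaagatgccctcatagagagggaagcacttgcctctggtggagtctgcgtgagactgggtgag
The window of Mertk held no match either. Either motif occurred in 12428 of 27025 promoter windows of this length (46.0%), so 2 of 4 members with a match is near the share of all promoters. A match is a run of letters and not a bound site.

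The ADP receptor P2ry12 (ENSMUSG00000036353, chr3:59216272-59262871 of GRCm38, minus strand) was lower in microglia of the injury library. It had 34 UMIs in sham microglia (1361 CPM, 943 to 1902) and 119 in injury microglia (718 CPM, 594 to 859). The log2 ratio of injury over sham was -0.92 (-1.48 to -0.33). The intervals of the 2 levels did not overlap, and without the nucleus with most P2ry12 UMIs in each library the ratio was -0.78. When nuclei that also met another gate were included the ratio was -0.31 (-0.73 to 0.12), and with a gate on 2 UMIs of the reference genes it was -0.47 (-0.96 to 0.05), intervals that take in 0.

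Gpr34 (ENSMUSG00000040229, chrX:13632089-13640858, plus strand), the lysophosphatidylserine receptor, had the lowest ratio of the 6 members with at least 20 UMIs in both libraries together. Its 23 sham UMIs came to 921 CPM (584 to 1382) and its 43 injury UMIs to 259 CPM (188 to 349), a log2 ratio of -1.83 (-2.59 to -1.03). It kept a negative ratio with an interval below 0 when mixed nuclei were included (-0.86, -1.51 to -0.17).

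Tmem119 (ENSMUSG00000054675, chr5:113793729-113800516, minus strand), a membrane protein widely used to tell microglia from other macrophages, was the sparsest member. It had 7 UMIs in sham (280.2 CPM, 113 to 577) and 12 in injury (72.4 CPM, 37.4 to 126). The log2 ratio of -1.95 had an interval from -3.42 to -0.37 and rested on 19 UMIs, under the minimum of 20 used for counts of genes. Leaving out the nucleus with most Tmem119 UMIs in each library gave -1.78 (-3.47 to 0.11), so a single nucleus per library decides on which side of 0 the interval ends.

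The receptors Csf1r and Siglech were lower in injury microglia by point value, with intervals that reach 0. Csf1r (ENSMUSG00000024621, chr18:61100598-61132149, plus strand), which transmits the survival signal, had 36 UMIs in sham (1441 CPM, 1009 to 1995) and 163 in injury (983 CPM, 838 to 1146), a log2 ratio of -0.55 (-1.08 to 0.01). Its ratio was 0.16 (-0.31 to 0.65) with mixed nuclei included. Those nuclei raised the totals used for scaling from 24978 to 203555 UMIs in sham and from 165838 to 936636 in injury. The direction of Csf1r thus depends on the nuclei taken and the totals they bring, and the part of each was not tested. Siglech (ENSMUSG00000051504, chr7:55768178-55778925, plus strand) had 27 UMIs (1081 CPM, 712 to 1573) and 117 UMIs (706 CPM, 583 to 846), a log2 ratio of -0.62 (-1.23 to 0.05). With a gate of at least 3 UMIs the Siglech ratio was -0.96 (-1.60 to -0.28), and without the highest nucleus of each library it was -0.40 (-1.08 to 0.35).

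The fractalkine receptor Cx3cr1 and the phagocytic receptor Mertk did not share this direction. Cx3cr1 (ENSMUSG00000052336, chr9:119901616-120069879, minus strand) had 18 UMIs in sham (721 CPM, 427 to 1139) and 139 in injury (838 CPM, 705 to 990), a log2 ratio of 0.22 (-0.50 to 1.01). Mertk (ENSMUSG00000014361, chr2:128698956-128802894, plus strand) was the member with most UMIs, 59 in sham (2362 CPM, 1798 to 3047) and 392 in injury (2364 CPM, 2136 to 2610), and its log2 ratio was 0.00 (-0.40 to 0.42). The interval of Mertk still holds differences as large as 0.42 in log2 units. When mixed nuclei were included, Mertk stood at 0.62 (0.28 to 0.97) and Cx3cr1 at 0.66 (0.10 to 1.27), and TMM scaling, described below, put Mertk at 0.46.

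**Figure D1:**
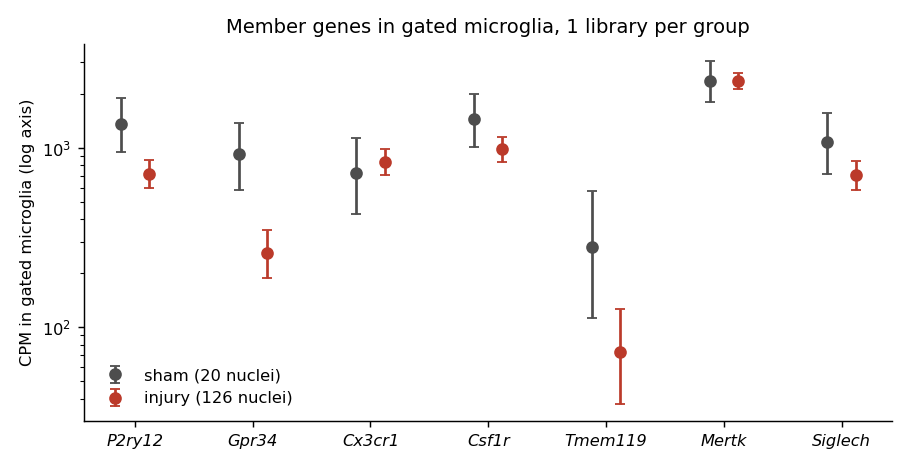
Level of each member in gated microglia of the sham and the injury library, in CPM on a log axis, with exact 95% Poisson intervals as bars. P2ry12 and Gpr34 have sham and injury intervals that do not overlap, and the intervals of Mertk overlap (2362 and 2364 CPM).

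Read as a group, the 7 members had 204 UMIs in sham microglia (8167 CPM) and 985 in injury microglia (5940 CPM), a log2 ratio of the sums of -0.46 (-0.68 to -0.23). With mixed nuclei included the same ratio was 0.14 (-0.04 to 0.32), so the direction of the sum depends on the nuclei taken and the totals they bring. Mixed nuclei brought 177017 of the 203555 sham UMIs and 769988 of the 936636 injury UMIs of the whole gate. Nuclei that also met the neuron gate held 174800 and 740943 of these. Every CPM with mixed nuclei included is scaled to these larger totals, and the effect of that on the ratios was not tested. Of the 6 members with at least 20 UMIs, 5 had a ratio below 0 and 1 above when a prior of 0.5 UMI was added (against 1179 and 1028 of all 2207 genes with at least 20 UMIs), with a median of -0.60. Mertk was among the 5 only through the prior, at -0.009 with it and 0.001 without it. Gpr34 alone was at -1 or below, against 8.93% of the 2207 genes with at least 20 UMIs in microglia, and none was at 1 or above, against 14.5%. Counting intervals lay below 0 for 2 of the 6 (P2ry12 and Gpr34), against 5.07% of all genes, and above 0 for none, against 4.17%. The median over the 2207 genes was -0.07. Because the members were drawn up with this comparison known, nothing is read from these shares.

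The scale of the comparison matters for how large the group's difference is. TMM factors of edgeR, which give less weight to genes with extreme ratios, add 0.46 to every log2 ratio, as much as the summed members lie below 0, and move the median of all genes to 0.39, and median-of-ratios size factors add 0.41. Scaling to the 18 reference genes adds 0.05. Under the first of these P2ry12 stood at -0.46 (-1.02 to 0.13), Gpr34 at -1.37 (-2.13 to -0.57), Csf1r at -0.09, Siglech at -0.16, Cx3cr1 at 0.68 and Mertk at 0.46 (0.06 to 0.88), so only Gpr34 kept an interval below 0. The median-of-ratios factors (0.447 in sham and 2.24 in injury) used only the 6301 genes with a UMI in both libraries. Sham microglia held 24978 UMIs in all, so sham counts per gene were low, and genes with no sham UMI were left out. The effect of this on the factors was not tested. Relative to the median of all genes, the order and the distances of the members are the same under each scaling.

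**Figure D2:**
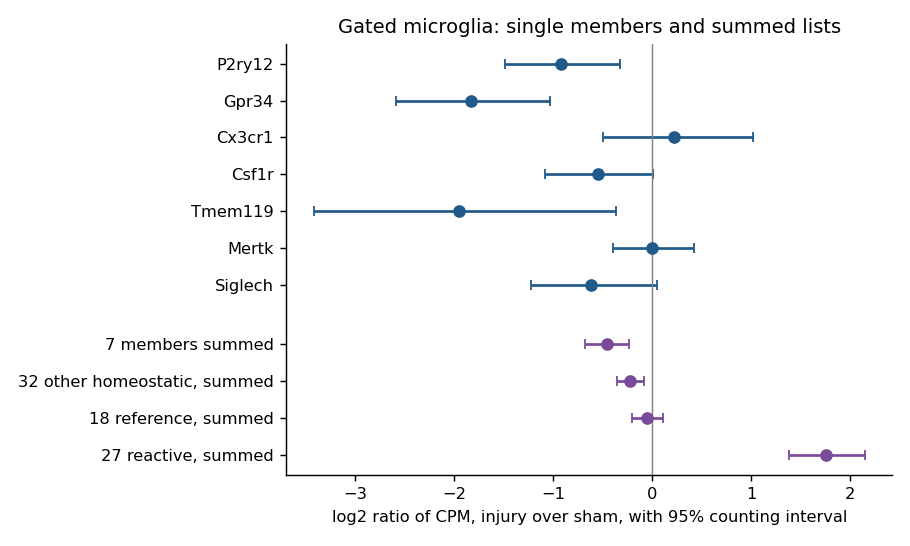
Log2 ratio of CPM, injury over sham, in gated microglia with exact conditional 95% intervals, for each member and for 4 lists summed over their genes. Gpr34 and P2ry12 lie below 0 with their intervals (with TMM factors that of P2ry12 takes in 0), the 18 reference genes sit near 0 (-0.05), and the 27 reactive genes lie at 1.75.

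Levels of different genes can be compared only per length, and here per kilobase of annotated exon. In sham microglia the order was Mertk (545 CPM per kb), P2ry12 (535), Gpr34 (441), Siglech (320), Csf1r (250), Cx3cr1 (160) and Tmem119 (121), and the interval of each gene overlapped that of the gene above it. In injury microglia the order of this level was Mertk (545), P2ry12 (282), Siglech (209), Cx3cr1 (186), Csf1r (170), Gpr34 (124) and Tmem119 (31.3). There P2ry12 was separated from Mertk, and Tmem119 from Gpr34, by intervals that did not overlap, and the other neighbours overlapped. Per kilobase of the whole gene, introns included, Gpr34 (105 CPM per kb in sham) and Siglech (101) came first, so the order depends on the length used. Libraries primed at the 3′ end need not scale with either, so neither order need rank the genes by amount of RNA.

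To determine which members are particular to microglia in this tissue, their levels were taken in every class with at least 50 nuclei. All 7 were higher in microglia than in each other class, in both libraries. Against all neurons together, the fold in sham was 7498 for Tmem119 (interval 2048 to 29959), 5784 for Siglech (3231 to 10390), 2242 for Csf1r (1475 to 3344) and 1681 for Mertk (1233 to 2263). It was 176 for Gpr34 (111 to 267), 74.6 for Cx3cr1 (44.1 to 118) and 17.3 for P2ry12 (11.98 to 24.2). In the injury library the fold was 4093 for Tmem119, 2721 for Siglech, 1378 for Csf1r and 642 for Mertk. It was 48.3 for Gpr34 (34.7 to 65.6), 84.5 for Cx3cr1 (70.5 to 100) and 8.65 for P2ry12 (7.16 to 10.4). The sham and injury intervals did not overlap for P2ry12, Gpr34 and Mertk. The folds of P2ry12 and Gpr34 rest on the microglial levels given above. For Mertk, microglia stood at 2362 and 2364 CPM and neurons at 1.41 and 3.68 CPM. The share of all genes with such a change was not taken, so nothing is read from these differences.

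Tmem119 and Siglech were nearly absent outside microglia. Tmem119 had 5 UMIs in 14747 sham neurons and 3 in 18120 injury neurons, and none in oligodendrocytes, oligodendrocyte precursors (OPC) or astrocytes of either library. A count of 0 in the 2293 injury oligodendrocytes allows a level of up to 0.695 CPM at a floor of 3 UMIs (0.855 CPM by the exact interval). Siglech had 25 and 44 UMIs in neurons (0.187 and 0.259 CPM), at most 3 in oligodendrocytes and at most 1 in astrocytes. Csf1r was at 0.643 CPM (0.514 to 0.794) in sham and 0.713 CPM (0.592 to 0.852) in injury neurons, at 1.72 and 1.62 CPM in oligodendrocytes, and had 0 and 1 UMI in astrocytes.

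Mertk was expressed in astrocytes too, which also clear debris through TAM receptors. It stood at 758 CPM (673 to 849) in 172 sham astrocytes and 752 CPM (705 to 801) in 452 injury astrocytes, a log2 ratio of -0.01 (-0.20 to 0.18). OPC, here as elsewhere without the nuclei that also met the neuron gate, held 25 UMIs in sham (136 CPM, 88.3 to 201) and 59 in injury (198 CPM, 151 to 256). Astrocytes held 43.4% of all Mertk UMIs of the sham library and 39.1% of those of the injury library, more than microglia did (8.70% and 15.7%). Neurons had 1.41 CPM (1.21 to 1.62) in sham and 3.68 CPM (3.40 to 3.98) in injury, a log2 ratio of 1.39 (1.15 to 1.63). The injury library also held more gated microglia and more astrocytes, at 2.08% against 1.05% of nuclei, and the part of their free RNA in the neuronal Mertk level was not tested. Among other genes that microglia express, the log2 ratio in neurons was 2.01 (0.96 to 3.23) for Trem2, 1.49 (0.62 to 2.46) for Axl, 1.01 (0.33 to 1.74) for Tyrobp, 0.47 (-0.27 to 1.24) for Siglech and 0.15 (-0.26 to 0.57) for Csf1r, and Tmem119 had 5 and 3 UMIs there.

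**Figure D3:**
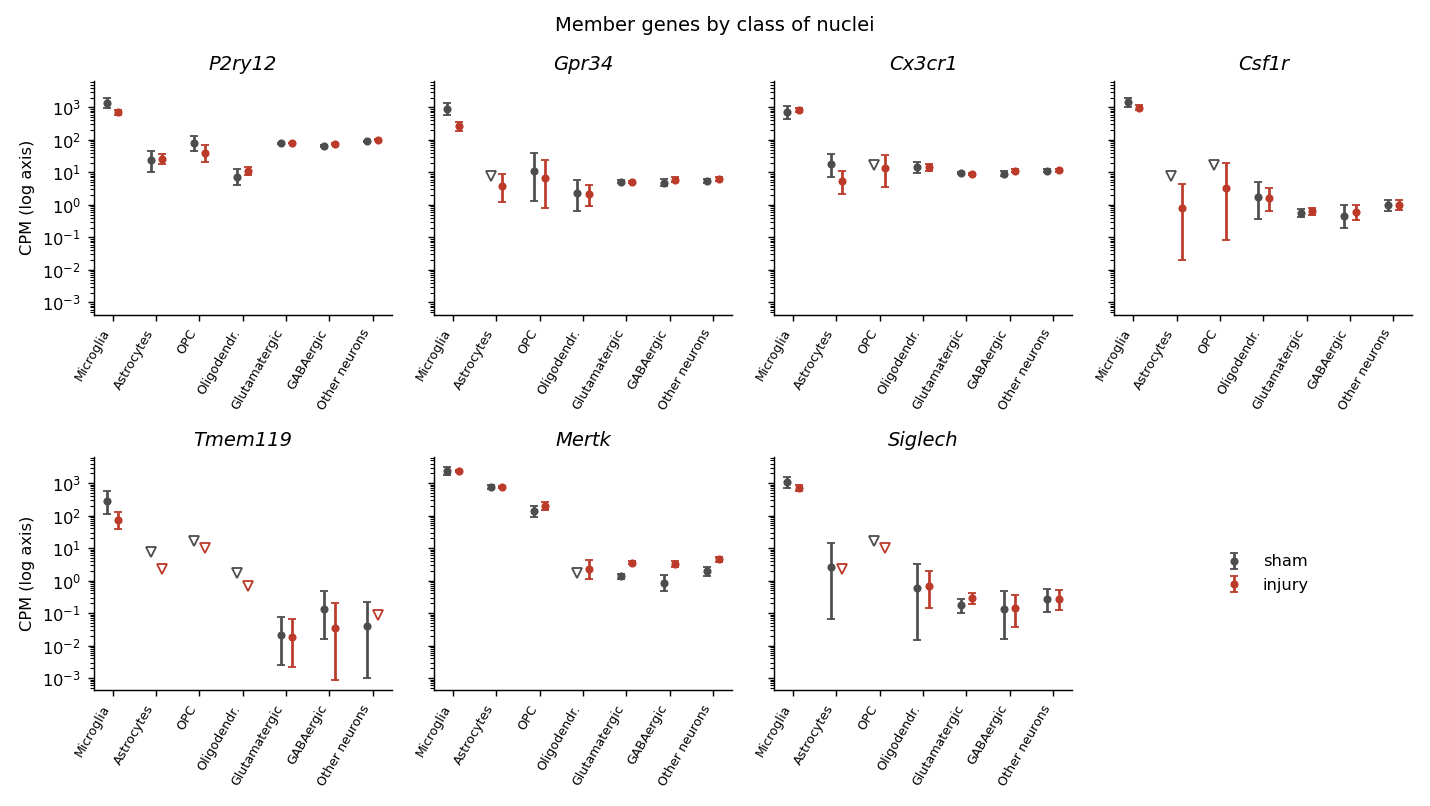
Level of each member by class of nuclei in both libraries, in CPM on a log axis, with exact 95% Poisson intervals as bars; open triangles mark classes with no UMI, drawn at the level of 3 UMIs. Mertk stands out in astrocytes (758 and 752 CPM) and P2ry12 in neurons (64.5 to 101.5 CPM over their kinds), while Tmem119 and Siglech are below 1 CPM in neurons.

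Of the members, P2ry12 had the smallest share of its UMIs in gated microglia. That share was also small for Cx3cr1 (1.31% in sham and 6.88% in injury), Gpr34 (3.07% and 4.18%) and Mertk (8.70% and 15.7%), and was highest for Tmem119 (43.8% and 54.5%). The sham library held 10691 P2ry12 UMIs, of which 10521 (98.4%) were in neurons and 34 (0.318%) in gated microglia. The injury library held 14548, of which 14076 (96.8%) were in neurons and 119 (0.818%) in microglia. The level was 78.7 CPM (77.2 to 80.2) in sham and 83.0 CPM (81.6 to 84.3) in injury neurons. Every kind of neuron held it, at 77.6 and 79.4 CPM in glutamatergic, 64.5 and 74.7 CPM in GABAergic and 90.7 and 101.5 CPM in other neurons, and OPC stood at 81.9 CPM (15 UMIs) and 40.4 CPM (12 UMIs). It was lower in oligodendrocytes (7.46 and 11.1 CPM) and astrocytes (23.2 and 25.5 CPM). The intervals of neurons and oligodendrocytes did not overlap in either library (77.2 to 80.2 against 3.97 to 12.8 CPM in sham), and oligodendrocyte nuclei were shallower, with a median of 1549 UMIs in sham. The part of free RNA in these levels was not tested.

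The annotation gives the setting of these UMIs. P2ry12 lies within Med12l (chr3:59005825-59318682, plus strand), a gene of the Mediator complex, on the opposite strand, and their exons share 9 bases. The related receptors P2ry13, P2ry14 and Gpr171 also lie in Med12l on the same strand as P2ry12. Med12l was at 301 CPM in sham and 302 CPM in injury neurons. For each Med12l UMI there were 0.262 P2ry12 UMIs (0.256 to 0.267) in sham neurons and 0.275 (0.270 to 0.280) in injury neurons. In injury oligodendrocytes the ratio was 0.249 (0.177 to 0.343), in injury astrocytes 0.192 (0.128 to 0.280) and in sham astrocytes 0.176 (0.0764 to 0.362). In microglia it was 2.83 (1.43 to 6.01) in sham and 2.64 (1.86 to 3.81) in injury with intervals above those of every other class. Had microglia carried P2ry12 UMIs at the ratio of neurons, their 12 and 45 Med12l UMIs would go with 3.14 of the 34 sham UMIs (9.23%) and 12.4 of the 119 injury UMIs (10.4%). With these taken off, the log2 ratio of P2ry12 was -0.94 in place of -0.92.

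P2ry14, the UDP-sugar receptor next to P2ry12, had a level in neurons and next to none in microglia. It was at 199 CPM (197 to 201) in sham and 176 CPM (174 to 178) in injury neurons, but had 0 UMIs in sham and 4 in injury microglia (24.1 CPM, 6.57 to 61.8). P2ry13, the other ADP receptor of microglia, had 0 and 8 UMIs in microglia and 1.08 and 1.17 CPM in neurons. Gpr171 was at 7.48 and 6.51 CPM in neurons and had no UMI in microglia. Within sham glutamatergic neurons, the P2ry12 level was 62.8 CPM (57.5 to 68.5) in the 1287 nuclei with no Med12l UMI and 86.0 CPM (82.5 to 89.6) in the 1577 with 6 or more, while the P2ry14 level was 175 and 203 CPM. In injury it was 68.3 CPM (63.0 to 74.0) with no Med12l UMI, 75.2 CPM (72.0 to 78.5) with 1 to 2 and 82.5 CPM (79.5 to 85.5) with 6 or more, while the P2ry14 level was 160 CPM with none and 165 CPM with 6 or more. Nuclei without a Med12l UMI thus still held P2ry12 UMIs in both libraries. In sham these nuclei also had fewer UMIs in all (median 5914 against 15414). Whether counting used introns and strand is not given in the sources used here, and reads of P2ry12 and of Med12l in their shared stretch cannot be told apart without strand.

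Gpr34 has a like setting at another scale. It lies within Cask (chrX:13517080-13851367, minus strand), a scaffold gene of the synapse, on the opposite strand with no shared exon base. Neurons held 5.22 CPM (4.84 to 5.62) of Gpr34 in sham and 5.37 CPM (5.03 to 5.73) in injury, or 0.0204 and 0.0226 UMIs per Cask UMI. Microglia held 1.77 (0.859 to 3.80) and 0.729 (0.480 to 1.10) per Cask UMI. At the neuronal ratio, 1.15% of sham and 3.11% of injury Gpr34 UMIs in microglia would go with Cask. Even so, 93.1% and 88.6% of all Gpr34 UMIs were in neurons, which made up most nuclei. The annotated span of Cx3cr1 overlaps Gorasp1, Csrnp1 and Xirp1 on its strand and Wdr48 and Ttc21a on the other. Cx3cr1 was at 9.66 and 9.92 CPM in neurons and at 14.3 CPM (9.28 to 21.2) and 14.4 CPM (11.01 to 18.4) in oligodendrocytes, whose injury interval lies above that of neurons (9.46 to 10.4).

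**Figure D4:**
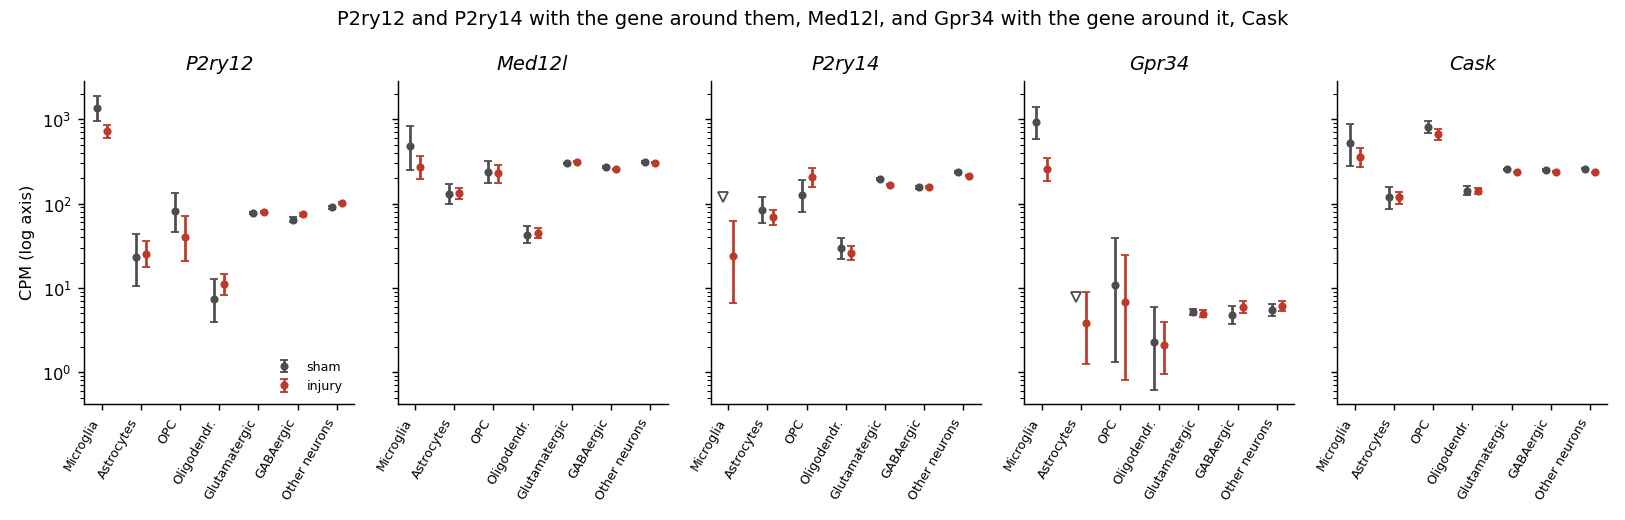
CPM on a log axis by class of nuclei for P2ry12 and P2ry14 beside Med12l, the gene they lie in, and for Gpr34 beside Cask; bars are exact 95% Poisson intervals and the open triangles mark classes with no UMI at the level of 3 UMIs. P2ry12, unlike P2ry14, is highest in microglia (1361 and 718 CPM), and both are measured in every kind of neuron at 64.5 CPM or more.

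Single nuclei hold few UMIs of any member, so shares of nuclei with a UMI were compared with the same shares in neurons and at equal depth. P2ry12 was detected in 15 of 20 sham microglia (75.0%, 50.9 to 91.3) and 65 of 126 injury microglia (51.6%, 42.5 to 60.6). Among glutamatergic neurons, whose nuclei are much deeper (median 9324 and 9658 UMIs against 1216 and 1111), it was detected in 48.5% in both libraries, so the raw share in injury microglia is close to that of neurons. Thinned to 1000 UMIs per nucleus, the shares were 73.3% of 15 and 48.0% of 75 microglia, and 7.74% and 8.58% of all neurons. Thinning left out 5 sham and 51 injury microglia that had fewer UMIs.

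Gpr34 was detected in 11 of 20 sham (55.0%) and 35 of 126 injury microglia (27.8%, 20.2 to 36.5), and in 53.3% and 21.3% after thinning. Neurons stood at 4.43% and 4.70%, or 0.636% and 0.633% after thinning. Mertk was found in 90.0% and 87.3% of microglia and Csf1r in 85.0% and 62.7%, against 0.929% and 2.18%, and 0.583% and 0.651%, of neurons. Cx3cr1 was found in 65.0% and 55.6%, Siglech in 55.0% and 51.6%, and Tmem119 in 25.0% (8.66 to 49.1) and 8.73% (4.44 to 15.1). The sham and injury intervals of each member's share overlapped, Gpr34 included (31.5 to 76.9 in sham).

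No single nucleus held most UMIs of a member. Even so, without the highest nucleus of each library the Tmem119 interval took in 0 (-3.47 to 0.11). The Siglech ratio was then -0.40 in place of -0.62. The highest share of a member's UMIs from 1 nucleus was 28.6% (Tmem119, 2 of 7 sham UMIs), and in injury microglia it was 16.7%, also for Tmem119. Mertk ranged from 0 to 8 UMIs per sham nucleus and from 0 to 15 per injury nucleus, with a median of 2 in both. P2ry12 ranged from 0 to 6 in both, with medians of 2 and 1. A median of 5 members had a UMI in a sham nucleus and of 4 in an injury nucleus. All members were found together in 1 sham and 2 injury nuclei, and 4 injury nuclei (3.17%) had none of them, with a median of 660 UMIs. In injury the median depth was 1119 UMIs at 1 member, 798 at 2, 1093 at 3 and 1733 at 6, and in sham it was 1487 at 3, 1063 at 4, 1303 at 5 and 1170 at 6.

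**Figure D5:**
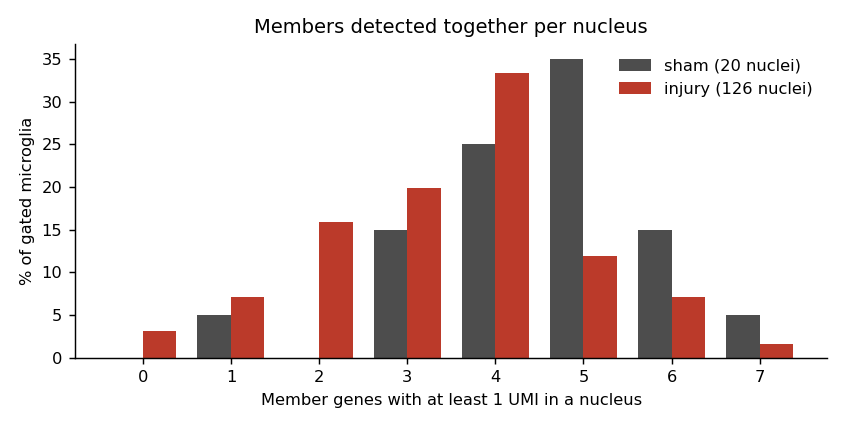
Share of gated microglia, in %, by the number of member genes with at least 1 UMI in the nucleus, from 0 to 7, for 20 sham and 126 injury nuclei. The largest sham bar is at 5 members (35.0%) and the largest injury bar at 4 (33.3%).

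Reactive genes of microglia were higher in injury in the same nuclei. The list held 27 genes with a row in both tables, and its sum was 61 UMIs in sham microglia (2442 CPM) and 1364 in injury microglia (8225 CPM), a log2 ratio of 1.75 (1.38 to 2.15). Of 16 genes with at least 20 UMIs, 15 were above 0, 10 were at 1 or above (against 14.5% of all genes) and 9 had an interval above 0 (against 4.17%); 6 of the 16 had no sham UMI, and the median of 2.35 is 0.98 when these are set at the floor of 3 UMIs. Of the 10, 9 had at most 2 sham UMIs and so passed the minimum only through the injury library, and nothing is read from these counts. The tetraspanin Cd9 had 0 and 78 UMIs, the growth factor Igf1 0 and 68 and the Csf1r ligand Csf1 0 and 45. With sham set at the floor of 3 UMIs, injury was 3.92-fold, 3.41-fold and 2.26-fold higher. These folds are not lower limits of an interval. The lipid carrier Apoe stood at 3.96 on the log2 scale (1.45 to 9.27), from 1 UMI in sham and 103 in injury. The lowest were B2m, a part of MHC class I (-0.73, -2.36 to 1.31), and the lysosomal protease Ctsb (0.59, -0.73 to 2.27), Fth1 of the iron store ferritin (0.90, -0.40 to 2.57) and the lipid receptor Trem2 (0.91, -1.09 to 4.04).

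Nuclei with at least 3 UMIs of reactive genes made up 10 of 20 sham (50%, 27.2 to 72.8) and 100 of 126 injury microglia (79.4%, 71.2 to 86.1). Cadm1 and Mitf held 17 UMIs each of the 61 in sham, and 220 and 233 of the 1364 in injury. Cd9, Igf1 and Csf1 had none in sham, so reaching this cut need not mean a reactive state. Within the injury library, P2ry12 was at 658 CPM (531 to 807) in these 100 nuclei and at 1040 CPM (659 to 1561) in the 21 nuclei with 1 to 2 such UMIs. Mertk was at 2412 CPM (2161 to 2683) and 2171 CPM (1600 to 2878), and Gpr34 at 265 and 226 CPM. The intervals overlapped for each of the 7 members, and the summed members were at 5789 CPM (5397 to 6202) and 6693 CPM (5658 to 7862). Nuclei with more reactive UMIs were also deeper (median 1168 against 913 UMIs), and 5 nuclei with none held 28 member UMIs.

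Of 32 other homeostatic genes, 26 had at least 20 UMIs. Of these, 14 were below 0 and 12 above (against 1179 and 1028 of the 2207 genes), with 5 intervals below 0 (against 5.07% of all genes) and 2 above (against 4.17%). Their median was -0.19, turning to 0.27 under TMM factors and 0.22 under median-of-ratios factors, and their summed ratio was -0.22 (-0.36 to -0.09). The lowest were the protease inhibitor Cst3 (18 and 51 UMIs, -1.23, -2.03 to -0.37), Selplg, the ligand of P-selectin (23 and 71 UMIs, -1.10, -1.80 to -0.36), the prostaglandin synthase Hpgds (-0.76, -1.28 to -0.21) and the transcription factor Mef2a (-0.71, -1.11 to -0.29). Among the highest were the Fc receptor-like gene Fcrls (4 and 87 UMIs, 1.71, 0.30 to 3.62), the transcription factor Irf8 (0.75, -0.36 to 2.11) and the TGF-beta receptor Tgfbr2 (0.75, 0.01 to 1.59). Spi1, whose core motif was searched above, had 7 and 37 UMIs (-0.33, -1.51 to 1.08). Of the 18 reference genes, 17 had at least 20 UMIs, with a median of -0.01; the kinase Lyn was the only one with an interval below 0 (-0.87, -1.29 to -0.42).

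The relatives of the members in their receptor families were scarce in microglia. Of the TAM receptors, Axl had 0 UMIs in sham microglia, which allows up to 120.1 CPM at a floor of 3 UMIs (147.7 CPM by the exact interval), and 20 in injury microglia (120.6 CPM), and Tyro3 had none in either but 100.4 and 95.2 CPM in oligodendrocytes. Among the class III receptor tyrosine kinases, to which Csf1r belongs, Kit and Pdgfrb had no UMI in microglia, Flt3 had 1 and 2, and Pdgfra, the marker of OPC, 0 and 1. Among Siglecs, Cd33 had 5 and 28 UMIs (-0.25, -1.64 to 1.48), and Siglec1, Siglece, Siglecf, Siglecg and Cd22 had 0 in sham and at most 2 in injury. Of the chemokine receptors, Ccr1, Ccr2 and Cxcr4 had none. Mag, the myelin Siglec, had 3 and 2.

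The ligands of the members are given by class, with sham microglia too few to place most of them there, since a count of 0 there allows up to 120.1 CPM at the floor of 3 UMIs. Cx3cl1 was at 45.5 CPM in neurons of both libraries (log2 ratio -0.00, -0.05 to 0.05), with 0 and 3 UMIs in microglia. Il34 was at 8.31 CPM in sham and 9.19 CPM in injury neurons (0.15, 0.03 to 0.26). Csf1, the other ligand of Csf1r, was at 99.8 and 97.6 CPM in oligodendrocytes (-0.03, -0.29 to 0.23), at 2.77 and 4.30 CPM in neurons (0.64, 0.45 to 0.82), and at 271 CPM in injury microglia. Gas6 was at 47.6 and 50.8 CPM in neurons, and Pros1 at 120.1 CPM in sham (3 UMIs) and 338 CPM in injury microglia (56 UMIs), a log2 ratio of 1.49 (-0.13 to 3.81). Pros1 was also at 18.04 and 44.8 CPM in astrocytes (1.31, 0.18 to 2.69). Tgfb1, a growth factor that maintains the microglial state, had 4 and 22 UMIs in microglia (-0.27, -1.83 to 1.73).

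Partners of the members inside microglia were measured unevenly. Entpd1, which breaks down ATP and ADP, the signals read by P2ry12, was at 1001 CPM in sham and 808 CPM in injury microglia (-0.31, -0.93 to 0.37), and Nt5e, the next enzyme of that chain, had no UMI there but 9.79 and 9.21 CPM in neurons. Abhd12, a lysophosphatidylserine lipase and so an enzyme of the Gpr34 ligand, was at 1201 and 995 CPM (-0.27, -0.84 to 0.34). Abhd16a, a phosphatidylserine lipase that makes lysophosphatidylserine, had 1 and 7 UMIs. Pla1a had none. Tyrobp, the adaptor of Siglech and Trem2, had 2 and 9 UMIs.

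The planned rule for likeness took in all classes with at least 50 nuclei in both libraries, but it was run without the other neurons. The genes then most like the summed members in level over classes were Itpkb, Dpf3, Plod2, Fry and Plce1. The comparison gave Pearson correlations of 0.994 to 0.990 of log2(CPM + 1). This runs over 10 points, the 5 named classes besides microglia (glutamatergic and GABAergic neurons, oligodendrocytes, OPC and astrocytes) in 2 libraries, without the other neurons and without microglia, of which sham had fewer than 50 nuclei; points of 1 library share its depth and free RNA. It is thus a likeness to the pattern outside microglia, where Mertk in astrocytes and P2ry12 in neurons lead. With microglia added (12 points) the first were Snn, Chd9, Apobec3, Birc3 and Stk10 (0.989 to 0.966).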

How the data were processed

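Single-nucleus RNA-seq libraries (10x Genomics 3′ v3.1) of 1 sham and 1 injury pool were analysed. The authors sequenced them and counted UMIs with Cell Ranger 6.0.2 against GRCm38 (mm10); the deposited values are raw UMI counts per gene and barcode, not normalized (137850696 sham and 180106314 injury UMIs). The annotation release is not given in the sources used here. Symbols and coordinates were taken from GENCODE M21, which matched 32158 of 32285 rows. Nuclei with over 2% mitochondrial UMIs, under 200 or over 7500 genes were left out, as in the study's methods (9 and 30, 0 and 0, 8 and 21 nuclei).

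Classes other than microglia were gated on markers per 10000 UMIs of a nucleus: neurons 30, oligodendrocytes 50, astrocytes 30 (each with at least 5 UMIs), macrophages 30, and OPC and other rare classes 10 (with at least 3 UMIs). These thresholds were set after the data were seen. No doublet caller was run; nuclei meeting 2 gates were left out as mixed. Names stand for "like" that class and may differ from the study's clusters.

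UMIs were summed per class and scaled to the class total (CPM). Intervals are exact Poisson (sums), exact binomial, Clopper-Pearson (shares) and exact conditional binomial (ratios), in Python 3.11.15 with scipy 1.17.1; TMM factors came from edgeR 4.0.16. Medians of lists and counts of genes used ratios with 0.5 UMI added to each library. The ratio script was tested on simulated data. The members and lists were chosen with earlier results of these data known. Of each list, up to 4 genes with the lowest and highest ratios among those with at least 20 UMIs were named, apart from items not reported here; Spi1, Lyn and the genes around the members were named after their values were seen.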

Additional observations from a re-analysis of the deposited data

How the results depend on the processing

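No paired analysis was possible because sham and injury were 1 pool each, and for the same reason no replicate could be left out. Of 86 recomputed member ratios 79 stayed within their counting interval. Many of the 86 reused the same or nearly the same UMIs. Without the filter on nuclei the same 20 and 126 nuclei entered, so those ratios were identical. The count of 79 is thus no measure of how robust the ratios are. With mixed nuclei included P2ry12 was at -0.31, Gpr34 at -0.86, Csf1r at 0.16 and Mertk at 0.62; with a gate of 2 UMIs of the reference genes Csf1r was at 0.071, Mertk at 0.65, P2ry12 at -0.47 (-0.96 to 0.05) and Gpr34 at -1.38; TMM factors put Mertk at 0.46. P2ry12, Gpr34, Siglech and Tmem119 were below 0 and Cx3cr1 above 0 under every alternative that gave a value. A gate of at least 5 UMIs and 50 per 10000 UMIs of the reference genes, chosen after seeing the data, as were the subtraction of UMIs that go with the host gene and the removal of the highest nucleus, gave P2ry12 at -0.91 and Gpr34 at -2.02. Gating on C1qa and C1qb alone gave no sham nucleus and so no value.

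The median of the members, -0.60, was -0.14 with TMM factors, -0.19 with median-of-ratios factors, -0.21 with mixed nuclei and -0.15 with the reference gate of 2 UMIs. That of the other homeostatic genes turned to 0.27, 0.22, 0.25 and 0.36 under the same 4, and was -0.35 with a prior of 2 UMIs. That of the reactive genes was 2.81 with TMM factors, 2.76 with median-of-ratios factors, 1.85 with the reference gate of 2 UMIs, 2.86 with free RNA subtracted at the neuronal level, 1.73 without a filter on low counts and 0.86 with a prior of 2 UMIs. Genes at least 2-fold lower and higher numbered 197 and 321, 54 and 532 with TMM factors, 55 and 498 with median-of-ratios factors, 332 and 632 with mixed nuclei, where 8156 genes enter in place of 2207, and 29 and 82 with at least 50 UMIs, where fewer genes enter. The cause of the shifts with mixed nuclei was not tested. The microglial share was 0.232% of sham and 0.937% of injury nuclei with mixed nuclei, and 0.450% of injury nuclei with a gate of at least 3 UMIs. Thinned shares left the interval for 3 of 14 (Cx3cr1, Csf1r and Mertk in injury), and 70 of 70 levels in 5 other classes (the other neurons were not recomputed) stayed within it without nuclei holding a gate UMI. The 20 sham nuclei limit every ratio.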
